A study of Sus scrofa with 12 samples.

Results

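The genes described here are the thymosins TMSB10 and TMSB4X, the cytoplasmic actins ACTB and ACTG1, the profilin PFN1, the actin depolymerising factors CFL1, CFL2 and DSTN, and the capping protein subunit CAPZB. They were chosen by gene symbol from a list of 10 actin monomer and filament proteins, because earlier results of these data showed TMSB10 activated between the control groups while TMSB4X stayed level. Of the 10 listed genes, 9 had a row among the 29329 genes of the count table, and these 9 were all among the 17995 genes that passed the low-count filter. PFN2, the other listed profilin, was not analysed here. Since TMSB10 and TMSB4X were selected on their levels, and the members on the difference between the control groups, those values are given as a description, and tests are given for the other 7 members in the comparisons that involve si-CCNB2 embryos.

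The libraries were prepared from Sus scrofa embryos made by in vitro fertilisation, with SMART-seq, in which polyadenylated RNA of a few cells is copied from an oligo(dT) primer and amplified by PCR. The 12 libraries formed 4 groups of 3, titled con-2c and con-4c for control embryos and si-2c and si-4c for embryos given si-CCNB2. Si-CCNB2 is a small interfering RNA against cyclin B2 (CCNB2), a mitotic cyclin that activates CDK1, and the con embryos were a blank control. No other allele, agent or age was given in the labels. According to the study's methods each library was a pool of several embryos, and the control is called both normal embryos and the NC group of the injection, so whether it was injected is unclear and the injection itself cannot be told apart from the knockdown. The cell stage in the title and that in the tissue label were opposite in all 12 libraries: the libraries titled 2c carried a label of 4 cells and those titled 4c a label of 2 cells. Group names therefore repeat the titles and state no stage. In what follows the control contrast is con-4c relative to con-2c, the 2c knockdown contrast is si-2c relative to con-2c, the 4c knockdown contrast is si-4c relative to con-4c, and the knockdown title contrast is si-4c relative to si-2c.

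Actin cycles between a monomeric and a filamentous form, and in embryos the filaments build the cortex under the plasma membrane and the contractile ring of each cleavage. Thymosins bind monomers and hold them in reserve, profilin brings monomers to growing filament ends, the cofilin family severs and shortens filaments, and capping protein closes their fast-growing ends. Embryos begin with RNA stored in the oocyte and start their own transcription at genome activation, when stored RNA is also degraded.

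CCNB2 checked the knockdown labels: its level was 475 ± 41.9 CPM (SD, n = 3; CPM are counts brought to a common library total with TMM factors) in con-4c and 464 ± 21.7 CPM in con-2c, against 42.6 ± 3.65 CPM in si-4c and 22.7 ± 5.58 CPM in si-2c. Library totals lay between 27785233 and 39510908 counts. Of the oocyte and early embryo markers, 7 of 8 were in the table, none at 0 in any group, and their summed level ranged from 2476 to 2800 CPM in con-2c, 2506 to 2666 CPM in si-4c, 1999 to 2047 CPM in con-4c and 2104 to 2366 CPM in si-2c. Of the cumulus and granulosa cell markers, 10 of 12 were in the table and summed to 291 to 368 CPM in con-2c, 291 to 300 CPM in si-4c, 177 to 189 CPM in con-4c and 171 to 198 CPM in si-2c. Nearly all of that sum was VCAN, a matrix proteoglycan, at 334 CPM in con-2c, 295 in si-4c, 177 in con-4c and 184 in si-2c, while LHCGR, CYP11A1, HAS2 and PTX3 had 0 counts in con-2c, LHCGR, CYP11A1 and HAS2 in si-4c, LHCGR in con-4c, and CYP11A1 and HAS2 in si-2c. Other low cumulus markers were higher in con-4c and si-2c instead. In the same order of groups VIM stood at 0.0594, 0.188, 2.71 and 1.67 CPM, and TNFAIP6 at 0.316, 0.0900, 1.04 and 0.848 CPM. STAR stood at 0.532, 0.356, 0.648 and 0.811 CPM, whereas CYP19A1 stood at 0.715, 0.475, 0.208 and 0.505 CPM. In the oocyte sum ZP4, a zona pellucida protein, stood at 1124 CPM in con-2c, 812 in si-4c, 528 in con-4c and 482 in si-2c, whereas BMP15, an oocyte growth factor, had the reverse order between con-2c (887 CPM) and the groups con-4c (985) and si-2c (1228), with 1046 in si-4c. Both sums, the cumulus sum through VCAN, were higher in con-2c and si-4c than in the other groups. So were the levels of DSTN, PFN1 and CFL2 described next, and the part of the marker sums in those differences was not tested. Only 2 of 8 sperm markers were in the table, and their sum reached at most 1.35 CPM.

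TMSB10 was abundant in con-4c and si-2c and low in con-2c and si-4c. Its gene lies at chr3:59776236-59777252 of Sscrofa11.1. The 3 libraries of con-2c held 12.8, 18.8 and 17.7 CPM of TMSB10, and those of con-4c held 582, 563 and 538 CPM. Those of si-2c held 302, 304 and 250 CPM, and those of si-4c held 16.05, 12.7 and 13.3 CPM. The order of the group means was con-4c, si-2c, con-2c and si-4c, and the ranges of neighbouring groups were separate except for the last pair, con-2c and si-4c, which overlapped. Relative to con-2c, TMSB10 was 34.1-fold higher in con-4c (log2 difference 5.09) and 17.3-fold higher in si-2c (4.11). In si-4c TMSB10 stood at 2.50% of its con-4c level (log2 difference -5.32), and in si-2c at 50.9% of it (-0.98).

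TMSB4X, the other thymosin, had nearly the same level in every group. Its gene lies at chrX:9649516-9651662. The libraries of con-2c held 868, 931 and 842 CPM of TMSB4X, those of con-4c 805, 843 and 801 CPM, those of si-2c 942, 948 and 723 CPM, and those of si-4c 879, 769 and 839 CPM. The ranges of all 4 groups overlapped, and no neighbours in the order of their means differed beyond their spread. The log2 differences of TMSB4X were -0.11 for the control contrast, -0.01 for the 2c knockdown contrast and 0.02 for the 4c knockdown contrast, and with libraries scaled by their totals they were 0.17, 0.38 and -0.24, so their signs depended on the scaling.

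**Figure D1:**
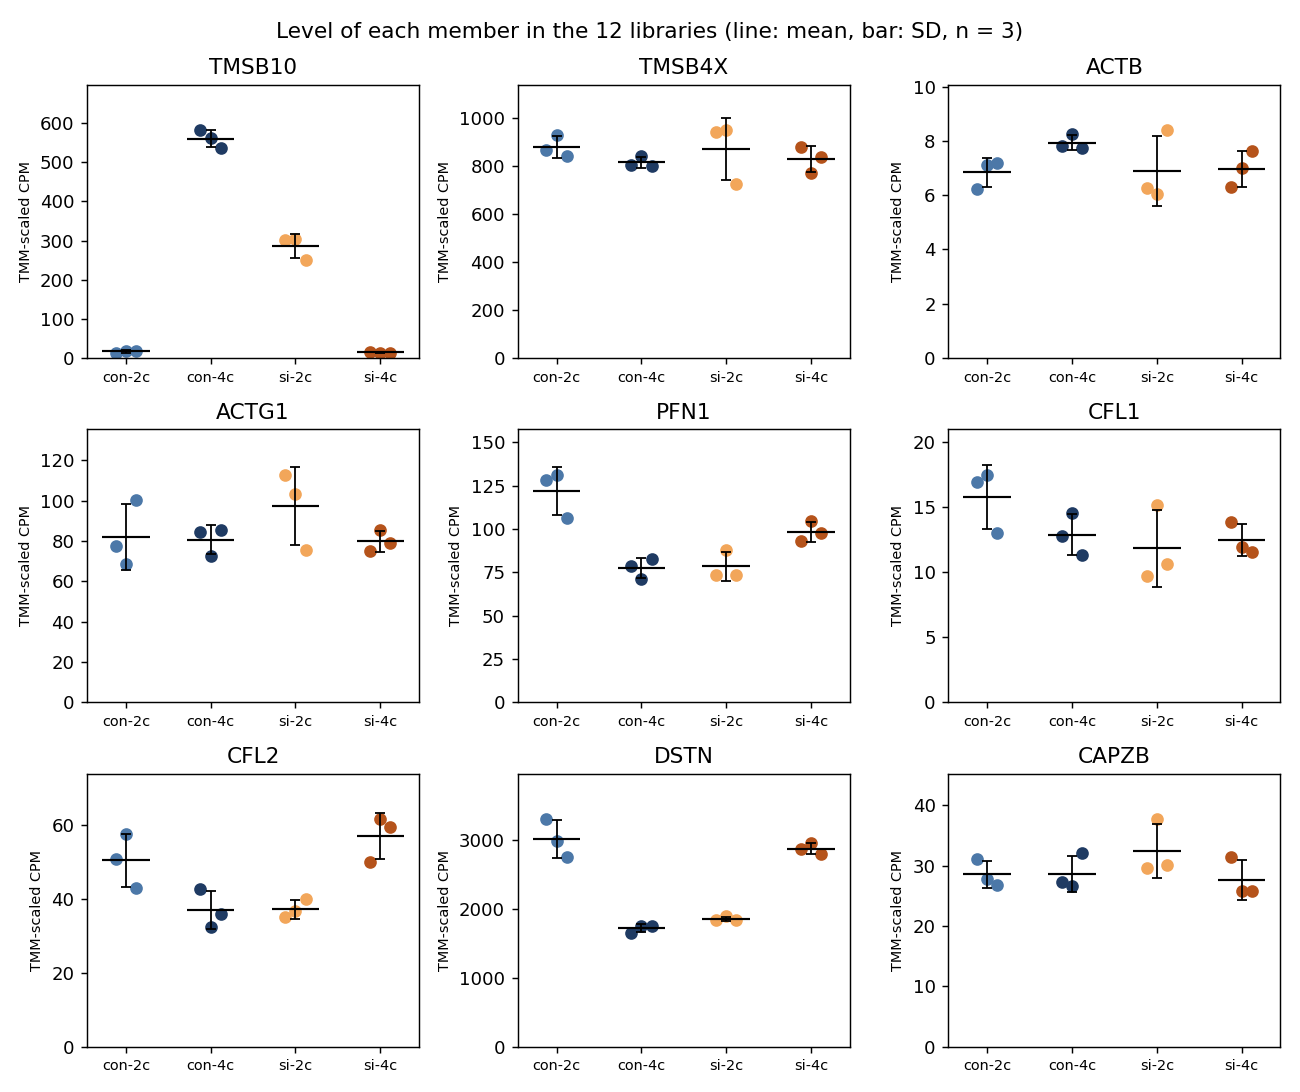
Level of the 9 members in TMM-scaled CPM (vertical axes, linear and starting at 0) in each library of the 4 groups; points are libraries, lines are means and bars the SD of 3 libraries. TMSB10 stood between 538 and 582 CPM in con-4c and between 250 and 304 CPM in si-2c against at most 18.8 CPM in the other groups. DSTN was higher in those other groups, at 2745 CPM or more in con-2c and si-4c and at 1894 CPM or less in con-4c and si-2c.

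The share of TMSB10 in the counts of the thymosin pair does not depend on how libraries are scaled. TMSB10 made up 1.83% ± 0.332 of the pair in con-2c, 1.66% ± 0.119 in si-4c, 40.7% ± 1.06 in con-4c and 24.7% ± 0.821 in si-2c (SD, n = 3). The shares in con-4c and si-2c lay apart from each other and from the other groups, while those of con-2c and si-4c overlapped. The summed level of both thymosins was 897 ± 47.1 CPM in con-2c, 843 ± 57.1 CPM in si-4c, 1377 ± 34.6 CPM in con-4c and 1157 ± 159 CPM in si-2c.

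**Figure D2:**
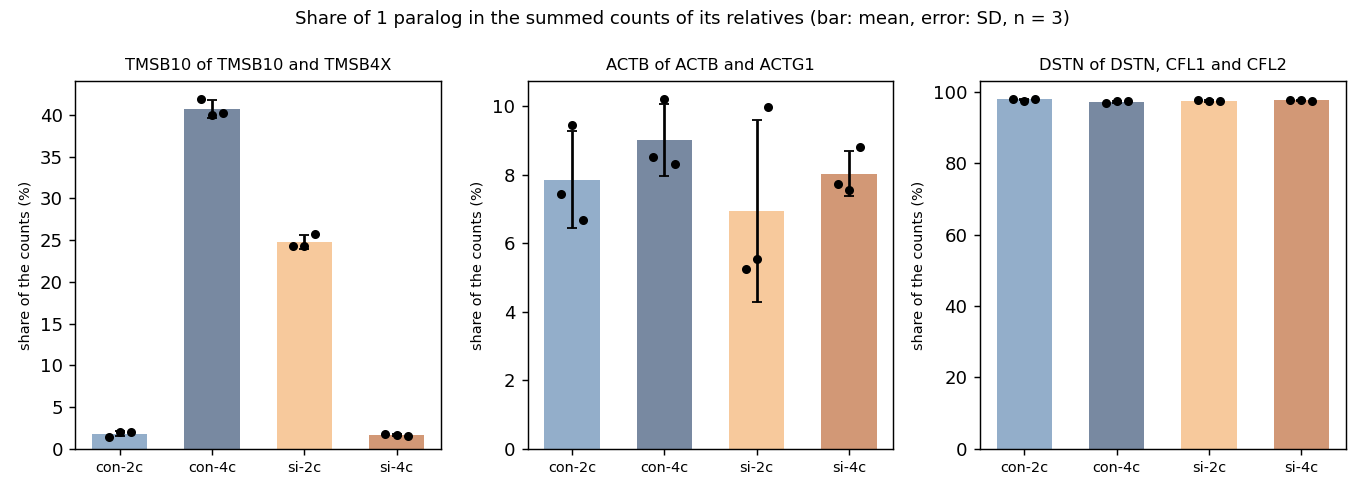
Share of 1 paralog in the summed counts of its relatives, in percent (vertical axes from 0), for the thymosins, the actins and the cofilin family in the 4 groups; bars are means, error bars the SD and points the 3 libraries. TMSB10 took 40.7% of the thymosin counts in con-4c and 1.66% in si-4c, while the ACTB share lay between 6.93% and 9.02% and the DSTN share between 97.2% and 97.8% in the 4 groups.

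Between the control groups, DSTN, PFN1 and CFL2 had lower levels in con-4c, opposite to TMSB10, and ACTG1 and CAPZB differed little. The log2 differences of the control contrast, given without a test, were -0.81 for DSTN, -0.66 for PFN1, -0.45 for CFL2, -0.29 for CFL1, -0.03 for ACTG1, 0.01 for CAPZB and 0.21 for ACTB with libraries scaled by TMM. With libraries scaled by their totals they were -0.53 for DSTN, -0.38 for PFN1, -0.16 for CFL2, -0.01 for CFL1, 0.23 for ACTG1, 0.28 for CAPZB and 0.48 for ACTB, so DSTN, PFN1 and CFL2 kept their sign at smaller sizes and ACTG1 changed its sign. For scale, 20.7% of all genes tested passed as higher and 15.1% as lower in that comparison, at an adjusted p below 0.05 in edgeR's quasi-likelihood test.

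The 2c knockdown contrast asks how the knockdown differed from control among libraries titled 2c. DSTN, PFN1 and CFL2 fell and the other 4 tested members did not pass, so 3 of 7 passed as lower and 0 of 7 as higher, where 12.3% of all genes passed as lower and 16.6% as higher. None of the 3 reached an absolute log2 fold change of 1, as 1.80% of all genes did downwards and 10.7% upwards. In the 4c knockdown contrast, the same comparison among libraries titled 4c, DSTN, PFN1 and CFL2 rose, 3 of 7 as higher and 0 of 7 as lower, where 15.1% of all genes passed as higher and 21.7% as lower. Of the 7 tested members, 0 were higher in the 2c knockdown contrast or lower in the 4c knockdown contrast at an unadjusted p below 0.05 in edgeR. These contrasts do not share controls with each other, but each shares libraries with the control contrast and with the knockdown title contrast, so the values are set side by side for each gene. With libraries scaled by their totals the count in the 2c knockdown contrast was 1 of 7 lower (DSTN) and 2 of 7 higher (ACTG1 and CAPZB), where 3.77% of all genes passed as lower and 33.6% as higher, and in the 4c knockdown contrast it was 2 of 7 higher (DSTN and CFL2) and 0 lower, where 7.61% and 29.4% did. P-values measure the spread between 3 libraries, which the labels do not tie to separate cultures.

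ACTB and ACTG1 encode the nonmuscle β- and γ-actins that form the cortical and contractile filaments. ACTB, at chr3:4084275-4090383, had few counts, from 196 to 391 per library. It held 6.24, 7.13 and 7.19 CPM in con-2c, 6.30, 6.998 and 7.62 CPM in si-4c, 7.83, 8.25 and 7.74 CPM in con-4c, and 6.26, 6.05 and 8.39 CPM in si-2c. The ranges of con-4c lay just above those of con-2c and si-4c, and the range of si-2c overlapped all others. ACTB did not pass in the 2c knockdown contrast (log2 fold change 0.01, 95% interval -0.34 to 0.37, edgeR adjusted p = 0.974) or in the 4c knockdown contrast (-0.19, -0.55 to 0.17, edgeR adjusted p = 0.427).

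ACTG1, at chr12:1320355-1323219, held 77.7, 68.4 and 100.3 CPM in con-2c, 75.1, 85.5 and 78.9 CPM in si-4c, 84.2, 72.4 and 85.2 CPM in con-4c, and 113, 103 and 75.6 CPM in si-2c. All 4 ranges overlapped. ACTG1 did not pass in the 2c knockdown contrast (0.24, 95% interval -0.06 to 0.55, edgeR adjusted p = 0.235), although without con-2c replicate 3 it passed at 0.41 (edgeR adjusted p = 0.0376) and without si-2c replicate 3 at 0.39 (0.0344). In the 4c knockdown contrast its log2 fold change was -0.01 (95% interval -0.32 to 0.29, edgeR adjusted p = 0.955). ACTB made up 7.86% ± 1.42 of the actin pair in con-2c, 8.04% ± 0.667 in si-4c, 9.02% ± 1.05 in con-4c and 6.93% ± 2.65 in si-2c, with overlapping ranges in all groups. The share within the actin pair therefore did not separate any of the groups.

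PFN1, profilin 1, at chr12:51962642-51965570, was highest in con-2c and next highest in si-4c. It held 128, 131 and 106 CPM in con-2c, 93.2, 105 and 97.6 CPM in si-4c, 78.4, 71.1 and 82.4 CPM in con-4c, and 73.7, 87.9 and 73.6 CPM in si-2c. The ranges of con-4c and si-2c overlapped, those of si-4c lay above both, and those of con-2c lay above si-4c. PFN1 fell in the 2c knockdown contrast to 64.3% of the control level (log2 difference -0.64, SE 0.10, edgeR adjusted p = 0.000121), and it rose in the 4c knockdown contrast to 127% of the control level (0.35, SE 0.10, edgeR adjusted p = 0.0115). The rise was lost without con-4c replicate 2 (0.30, edgeR adjusted p = 0.0602), without si-4c replicate 2 (0.31, 0.0534) and with libraries scaled by their totals (0.09, 0.486). Under that scaling the fall was also lost (-0.24, edgeR adjusted p = 0.0537).

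CFL1, nonmuscle cofilin, at chr2:6471558-6475019, held 16.9, 17.5 and 13.0 CPM in con-2c, 13.9, 11.9 and 11.6 CPM in si-4c, 12.8, 14.5 and 11.3 CPM in con-4c, and 9.67, 15.2 and 10.6 CPM in si-2c. Its ranges overlapped in every pair of groups. CFL1 did not pass in the 2c knockdown contrast (-0.42, SE 0.18, edgeR adjusted p = 0.0857), but passed without con-2c replicate 3 (-0.54, 0.0383) or without si-2c replicate 2 (-0.64, 0.0132). In the 4c knockdown contrast it had a log2 fold change of -0.05 (95% interval -0.42 to 0.32, edgeR adjusted p = 0.861).

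CFL2, the cofilin best known from muscle, at chr7:65090170-65094521, held 50.9, 57.6 and 43.0 CPM in con-2c, 49.998, 61.6 and 59.6 CPM in si-4c, 42.8, 32.4 and 36.0 CPM in con-4c, and 35.1, 36.7 and 39.95 CPM in si-2c. The libraries of con-2c and si-4c overlapped and lay above those of con-4c and si-2c, which overlapped with each other, although the gap between the highest con-4c library (42.8 CPM) and the lowest con-2c library (43.0 CPM) was small. CFL2 fell in the 2c knockdown contrast to 73.8% (-0.44, SE 0.12, edgeR adjusted p = 0.0133) and rose in the 4c knockdown contrast to 154% (0.62, SE 0.12, edgeR adjusted p = 0.000851). The fall did not hold without con-2c replicate 2 (-0.34, edgeR adjusted p = 0.0829), without si-2c replicate 1 (-0.40, 0.0574) or with libraries scaled by their totals (-0.03, 0.872), whereas the rise held in all 19 alternatives run.

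DSTN, destrin, also called actin depolymerising factor, had the smallest adjusted p of the 7 tested members in both knockdown contrasts. Its gene lies at chr17:25998830-26050354. The libraries of con-2c held 3297, 2979 and 2745 CPM of DSTN, and those of si-4c held 2861, 2956 and 2801 CPM. Those of con-4c held 1653, 1746 and 1755 CPM, and those of si-2c held 1846, 1894 and 1836 CPM. The ranges of con-2c and si-4c overlapped, that of si-2c lay far below them, and that of con-4c lay just below si-2c. DSTN fell in the 2c knockdown contrast to 61.8% of the control level (-0.69, SE 0.07, edgeR adjusted p = 2.08e-06) and rose in the 4c knockdown contrast to 167% of it (0.74, SE 0.07, edgeR adjusted p = 5.60e-07). Both calls held in all 19 alternatives run, with log2 fold changes from -0.75 to -0.29 and from 0.48 to 0.81.

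DSTN made up 97.8% ± 0.260 of the summed counts of DSTN, CFL1 and CFL2 in con-2c, 97.6% ± 0.157 in si-4c, 97.2% ± 0.362 in con-4c and 97.4% ± 0.179 in si-2c. The summed level of the 3 genes was 3073 ± 282 CPM in con-2c, 2942 ± 80.1 CPM in si-4c, 1768 ± 51.8 CPM in con-4c and 1907 ± 32.9 CPM in si-2c. The sum therefore followed DSTN. Counts depend on transcript length and on the similarity of gene copies, so the shares are compared between libraries and not read as the amount of each protein family member.

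CAPZB, the β subunit of capping protein, at chr6:77780682-77912653, held 31.1, 27.7 and 26.8 CPM in con-2c, 31.5, 25.8 and 25.7 CPM in si-4c, 27.2, 26.6 and 32.1 CPM in con-4c, and 29.5, 37.6 and 30.1 CPM in si-2c. All 4 ranges overlapped. CAPZB did not pass in the 2c knockdown contrast (0.18, 95% interval -0.08 to 0.45, edgeR adjusted p = 0.310) or in the 4c knockdown contrast (-0.05, -0.31 to 0.22, edgeR adjusted p = 0.802). With libraries scaled by their totals it passed as higher in the 2c knockdown contrast (0.58, edgeR adjusted p = 0.00112), as did ACTG1 (0.62, 0.00655).

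**Figure D3:**
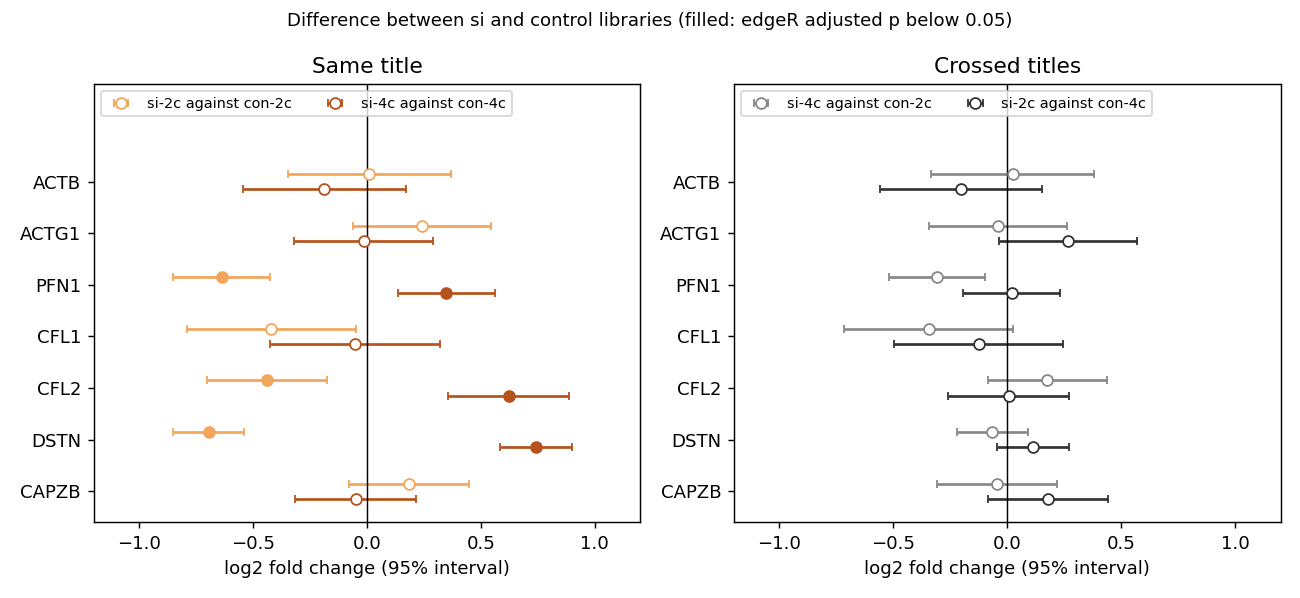
Log2 fold change (horizontal axis, with 95% intervals) of the 7 tested members between si and control libraries, for libraries of the same title on the left and of crossed titles on the right; filled points passed edgeR's test at an adjusted p below 0.05. DSTN lay at -0.69 and 0.74 in the comparisons within a title and at -0.07 and 0.11 in the crossed ones.

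The difference between si and control libraries was itself compared between the titles by an interaction term, the si-4c minus con-4c difference less the si-2c minus con-2c difference. This term equals the knockdown title contrast less the control contrast, on which the members were chosen. For DSTN that is 0.63 less -0.81, and for PFN1 0.33 less -0.66, so the p-values of the term are no independent support. DSTN (1.44, SE 0.10, edgeR adjusted p = 7.22e-09), CFL2 (1.06, SE 0.18, edgeR adjusted p = 0.000104) and PFN1 (0.99, SE 0.14, edgeR adjusted p = 2.30e-05) passed as higher, and ACTB, ACTG1, CFL1 and CAPZB did not pass. That was 3 of 7 members as higher and 0 of 7 as lower, where 18.2% of all genes passed as higher and 27.3% as lower. For TMSB10 the same term, given without a test, was -9.44, and for TMSB4X it was 0.04. The interaction of DSTN passed in all 18 alternatives run, and that of CFL2 was lost with libraries scaled by their totals (0.40, edgeR adjusted p = 0.0836). Under that scaling 2 members passed as higher, DSTN and PFN1, and 3 as lower, ACTB (-0.85, edgeR adjusted p = 0.0136), ACTG1 (-0.89, 0.00391) and CAPZB (-0.89, 0.000343), where 7.09% of all genes passed as higher and 43.2% as lower. With at least 10 CPM required in 3 libraries CAPZB passed as lower (-0.43, edgeR adjusted p = 0.0395), as 34.2% of all genes did. CFL1 passed as higher without si-2c replicate 2 (0.59, edgeR adjusted p = 0.04998).

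In the knockdown title contrast, DSTN (0.63, SE 0.07, edgeR adjusted p = 6.16e-06), CFL2 (0.62, SE 0.12, edgeR adjusted p = 0.00123) and PFN1 (0.33, SE 0.10, edgeR adjusted p = 0.0203) rose, while TMSB10 stood at 4.91% of its si-2c level. The count was 3 of 7 as higher and 0 of 7 as lower, where 12.1% of all genes passed as higher and 16.9% as lower. The rise of PFN1 was lost without si-2c replicate 1, si-2c replicate 3 or si-4c replicate 2 (edgeR adjusted p = 0.0817, 0.0642 and 0.0872), and with at least 10 CPM required in 3 libraries (0.0615), and with libraries scaled by their totals it turned to -0.05. Under that scaling CFL2 was also lost (0.23, edgeR adjusted p = 0.173), and ACTG1 (-0.66, 0.00458) and CAPZB (-0.61, 0.000813) passed as lower, where 3.57% of all genes passed as higher and 33.1% as lower. ACTG1 (-0.39, edgeR adjusted p = 0.0285) and CAPZB (-0.33, 0.0335) also passed as lower with at least 10 CPM required in 3 libraries, as 25.8% of all genes did. ACTG1 also passed as lower without si-2c replicate 3 (-0.43, edgeR adjusted p = 0.0198).

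The crossed comparisons set libraries of opposite titles side by side, since the titles and tissue labels disagreed. In si-4c versus con-2c, 0 of 7 members passed in edgeR in either direction, where 0.106% of all genes passed as higher and 0.567% as lower. PFN1 alone had an unadjusted p below 0.05 there (-0.31, SE 0.10, edgeR adjusted p = 0.223), and DSTN differed by -0.07 (95% interval -0.22 to 0.09, edgeR adjusted p = 0.858). In si-2c versus con-4c, 0 of 7 passed as well, where 2.22% of all genes passed as higher and 5.32% as lower, and no member had an unadjusted p below 0.05. DSTN differed by 0.11 there (95% interval -0.04 to 0.27, edgeR adjusted p = 0.478), CFL2 by 0.01 (-0.26 to 0.27, 0.989) and PFN1 by 0.02 (-0.19 to 0.23, 0.962). DESeq2 also passed 0 of 7 in both, and with libraries scaled by their totals DSTN passed as higher in si-2c versus con-4c (0.24, edgeR adjusted p = 0.0204). TMSB10, given without a test, stood at 285 ± 30.5 CPM in si-2c against 561 ± 21.9 CPM in con-4c.

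These values depended on the scaling, and the TMM factors ranged from 0.852 to 1.21. The median log2 fold change of all genes tested was 0.12 in the 2c knockdown contrast and -0.11 in the 4c knockdown contrast under TMM, and 0.52 and -0.37 with libraries scaled by their totals. Relative to that median, DSTN, PFN1 and CFL2 lay lower in the 2c knockdown contrast and higher in the 4c knockdown contrast. Scaling moves each gene and the median by nearly the same amount, so this position was bound to hold under both scalings and is no support. Ratios of counts within a library need no scaling, and those to CAPZB and ACTG1 were computed after the data were seen. CAPZB and ACTG1 were taken because they did not pass, so a group pattern in the ratios largely follows from that choice. ACTB and CFL1, which did not pass either, were not used. DSTN had 105 ± 2.59 counts per CAPZB count in con-2c, 105 ± 12.4 in si-4c, 60.3 ± 5.46 in con-4c and 58.0 ± 6.66 in si-2c (SD, n = 3). CFL2 had 1.77 ± 0.265, 2.098 ± 0.444, 1.30 ± 0.237 and 1.16 ± 0.177 in the same order, and PFN1 had 4.28 ± 0.406, 3.60 ± 0.574, 2.71 ± 0.160 and 2.43 ± 0.0823. For each of the 3 genes the ratios to CAPZB in con-2c and si-4c lay above those in con-4c and si-2c without overlap. The ratios to ACTG1 did so for DSTN, with 27.4 to 43.6 in con-2c and 34.6 to 38.1 in si-4c against 19.6 to 24.1 in con-4c and 16.4 to 24.3 in si-2c, and for PFN1, but for CFL2 those of con-2c (0.429 to 0.842) overlapped those of con-4c (0.423 to 0.508) and si-2c (0.311 to 0.529). A ratio shows unequal levels of its genes between groups and not which of the genes changed.

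**Figure D4:**
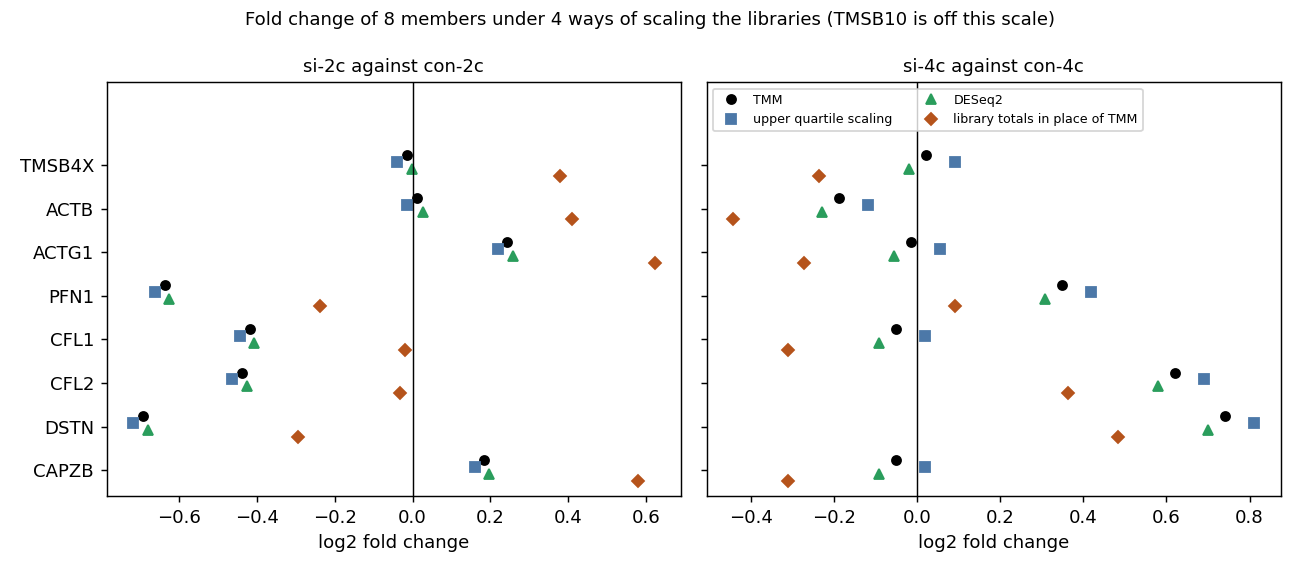
Log2 fold change (horizontal axis) of 8 members in the 2c knockdown contrast and in the 4c knockdown contrast with libraries scaled by TMM, by the upper quartile, by DESeq2 size factors or by their totals. DSTN stayed on the same side of 0 under all 4, from 0.48 to 0.81 in the 4c knockdown contrast, whereas TMSB4X moved from -0.01 to 0.38 in the 2c knockdown contrast.

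Over the 12 libraries the levels of TMSB10 ran opposite to those of DSTN, CFL2 and PFN1. TMSB10 had a Pearson r of -0.986 with DSTN, -0.867 with CFL2 and -0.836 with PFN1 in log2 CPM, and DSTN had 0.893 with PFN1 and 0.842 with CFL2. The other 5 members had an r with TMSB10 of -0.0903 (TMSB4X), 0.351 (ACTB), 0.247 (ACTG1), -0.325 (CFL1) and 0.313 (CAPZB). These values describe 12 libraries that share 4 groups and their scaling, so that they mostly repeat the order of the groups. Among 5320 genes with a symbol and a mean of at least 10 CPM, those most like TMSB10 were FAU (r = 0.996), which encodes a ribosomal protein fusion, RTN4 (0.996), a reticulon of the endoplasmic reticulum, RTF1 (0.995), a transcription elongation factor, SPTY2D1 (0.995), a histone chaperone, and SRSF5 (0.995), a splicing factor. FAU stood at 2.68 CPM in con-2c, 1.18 in si-4c, 254 in con-4c and 110 in si-2c.

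The genes most like DSTN were PARL (r = 0.996), a mitochondrial membrane protease at 3710 CPM in con-2c, 3600 in si-4c, 1890 in con-4c and 2025 in si-2c, CEP290 (0.991), a centrosomal and ciliary protein, and ASF1B (0.990), a histone chaperone. Those most like PFN1 were IL12B (0.974), ELP4 (0.971) and LAPTM4A (0.952), and those most like CFL2 were SLCO4C1 (0.962), UFSP2 (0.951) and NCK1 (0.950). The closest genes of the other members had a lower r: CHEK1 for TMSB4X (0.902), MARCHF8 for ACTB (0.894), LDB1 for ACTG1 (0.912), BCAP29 for CFL1 (0.885) and SRGAP1 for CAPZB (0.827).

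The other genes of the actin pathway were taken from a list of 109 symbols, of which 95 were in the table and 88 were tested. In the control contrast 24 of 88 passed as higher and 10 as lower, of which 6 and 1 also reached an absolute log2 fold change of 1, where 14.4% and 3.25% of all genes did so. The median log2 fold change of the 88 genes was 0.10, and that of all genes 0.11. In the 2c knockdown contrast 20 passed as higher and 11 as lower, with 5 and 0 past that fold and a median of 0.22 against 0.12 over all genes. In the 4c knockdown contrast 9 passed as higher and 22 as lower, with 0 and 7 past that fold, where 3.12% and 15.8% of all genes were, and a median of -0.12 against -0.11. Of the list, 27.3% passed as higher and 11.4% as lower in the control contrast, against 20.7% and 15.1% of all genes. In the 2c knockdown contrast 22.7% and 12.5% did, against 16.6% and 12.3%, and in the 4c knockdown contrast 10.2% and 25.0%, against 15.1% and 21.7%. Past an absolute log2 fold change of 1 the list had 6.82% higher in the control contrast, 5.68% higher in the 2c knockdown contrast and 7.95% lower in the 4c knockdown contrast, against 14.4%, 10.7% and 15.8% of all genes, so whether its share lay above or below that of all genes depended on the minimum fold. The counts also depended on the scaling. With libraries scaled by their totals 38 passed as higher and 4 as lower in the control contrast, where 29.2% and 7.37% of all genes did, 47 and 3 in the 2c knockdown contrast, where 33.6% and 3.77% did, and 3 and 36 in the 4c knockdown contrast, where 7.61% and 29.4% did. Past that fold there were then 10 higher in the control contrast, 11 higher in the 2c knockdown contrast and 8 lower in the 4c knockdown contrast, where 17.9%, 16.8% and 18.7% of all genes were.

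TPM3, a tropomyosin that coats actin filaments, had the same order of groups as TMSB10. It stood at 0.617 ± 0.408 CPM in con-2c, 0.366 ± 0.138 CPM in si-4c, 75.5 ± 3.09 CPM in con-4c and 29.8 ± 2.37 CPM in si-2c. TPM3 rose in the control contrast (6.93, SE 0.25, edgeR adjusted p = 1.73e-12) and in the 2c knockdown contrast (5.59, SE 0.25, 3.73e-11), and it fell in the 4c knockdown contrast (-7.68, SE 0.27, 8.23e-13). FLNA, the crosslinker filamin A, had 0 counts in every library of con-2c and si-4c and 0.537 ± 0.0205 CPM in con-4c and 0.634 ± 0.324 CPM in si-2c. Against a floor of 3 counts in each library of con-2c, FLNA was at least 5.62-fold higher in con-4c and at least 6.65-fold higher in si-2c (edgeR adjusted p = 0.00265 and 0.00274), and against the same floor in si-4c it was at least 5.96-fold lower there than in con-4c (edgeR adjusted p = 0.00249). Their list was mixed: of 15 tested genes, 4 passed as higher and 3 as lower in the control contrast. The counts were 3 and 3 in the 2c knockdown contrast and 3 and 5 in the 4c knockdown contrast. The shares of all genes were 20.7% and 15.1%, 16.6% and 12.3%, and 15.1% and 21.7%. Those lower in the control contrast were PLS3 (-0.49), EZR (-0.35) and CNN3 (-0.52).

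The small GTPase RHOA and the myosin heavy chain MYH9, which act in the contractile ring, were also higher in con-4c and, less far, in si-2c. RHOA stood at 32.8 ± 2.84 CPM in con-2c, 34.0 ± 2.202 CPM in si-4c, 70.6 ± 2.19 CPM in con-4c and 46.9 ± 1.77 CPM in si-2c, and rose in the control contrast (1.11, SE 0.09, edgeR adjusted p = 5.42e-08) and fell in the 4c knockdown contrast (-1.06, SE 0.09, edgeR adjusted p = 8.91e-08). MYH9 stood at 3.71 ± 0.414, 3.55 ± 0.769, 16.3 ± 2.18 and 9.97 ± 0.571 CPM in the same order of groups, and changed by 2.14 in the control contrast, 1.43 in the 2c knockdown contrast and -2.199 in the 4c knockdown contrast (edgeR adjusted p = 9.68e-08, 1.37e-05 and 6.84e-08). Of 5 tested myosin II chains, MYH9 included, 2 passed as higher and 1 as lower in the control contrast, 1 and 2 in the 2c knockdown contrast, and 1 and 2 in the 4c knockdown contrast, beside 20.7% and 15.1%, 16.6% and 12.3%, and 15.1% and 21.7% of all genes. MYL12A, a regulatory light chain, passed as lower in the control contrast (-0.53, edgeR adjusted p = 0.000580) and in the 2c knockdown contrast (-0.83, 1.07e-05) and as higher in the 4c knockdown contrast (0.34, 0.0148), and was chosen after its values were seen. ARPC3, a subunit of the Arp2/3 complex that nucleates branched filaments, rose from 14.6 ± 2.07 CPM in con-2c to 35.8 ± 2.37 CPM in con-4c (1.30, SE 0.13, edgeR adjusted p = 5.63e-07). Of the 7 tested Arp2/3 subunits 2 passed as higher and 2 as lower in that comparison, where 20.7% and 15.1% of all genes did.

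Of the other named genes, WAS, an activator of Arp2/3, fell in the control contrast from 3.08 ± 0.502 to 1.51 ± 0.462 CPM (-1.03, SE 0.34, edgeR adjusted p = 0.0255). It was the only list gene there that both passed as lower and lay past a log2 fold change of -1, and the call was lost with libraries scaled by their totals (-0.75, edgeR adjusted p = 0.107) and without con-2c replicate 1 (-0.89, 0.0947), con-4c replicate 2 (-0.85, 0.105) or con-4c replicate 3 (-0.99, 0.0748), while in DESeq2 WAS passed at -0.997, short of that fold. ABI2, a subunit of the WAVE complex, rose in the 2c knockdown contrast from 2.23 ± 0.626 to 4.64 ± 0.381 CPM (1.06, SE 0.31, edgeR adjusted p = 0.0170) and fell in the 4c knockdown contrast from 4.09 ± 0.858 to 1.84 ± 0.779 CPM (-1.15, SE 0.32, edgeR adjusted p = 0.00898). The rise of ABI2 was lost without con-2c replicate 2 (0.90, edgeR adjusted p = 0.0801), con-2c replicate 3 (1.002, 0.0537) or si-2c replicate 3 (0.9957, 0.0508), and its fall without con-4c replicate 2 (-0.96, 0.05035). ACTC1, the cardiac α-actin, fell in the 4c knockdown contrast from 5.24 ± 0.602 to 2.52 ± 0.246 CPM (-1.05, SE 0.30, edgeR adjusted p = 0.0105). It still passed but fell short of a log2 fold change of -1 under upper quartile scaling (-0.98), without con-4c replicate 2 (-0.95) and without si-4c replicate 3 (-0.97), as ABI2 did without si-4c replicate 3 (-0.84) and RHOA under upper quartile scaling (-0.99) in that contrast. ACTG2, the smooth muscle γ-actin, had 0 counts in every library of con-2c and reached at most 0.431 CPM in con-4c and 0.926 CPM in si-2c. ACTG2 passed as higher in the control contrast and in the 2c knockdown contrast (edgeR adjusted p = 0.0377 and 0.0250), although 1 library of con-4c was also at 0. The first of these calls was lost without any 1 of the con-2c libraries, con-4c replicate 1 or 2, or si-2c replicate 1 or 3 (edgeR adjusted p from 0.0559 to 0.0948), and the second without any 1 of the con-2c libraries or si-2c replicate 1 (0.0635 to 0.0967).

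**Figure D5:**
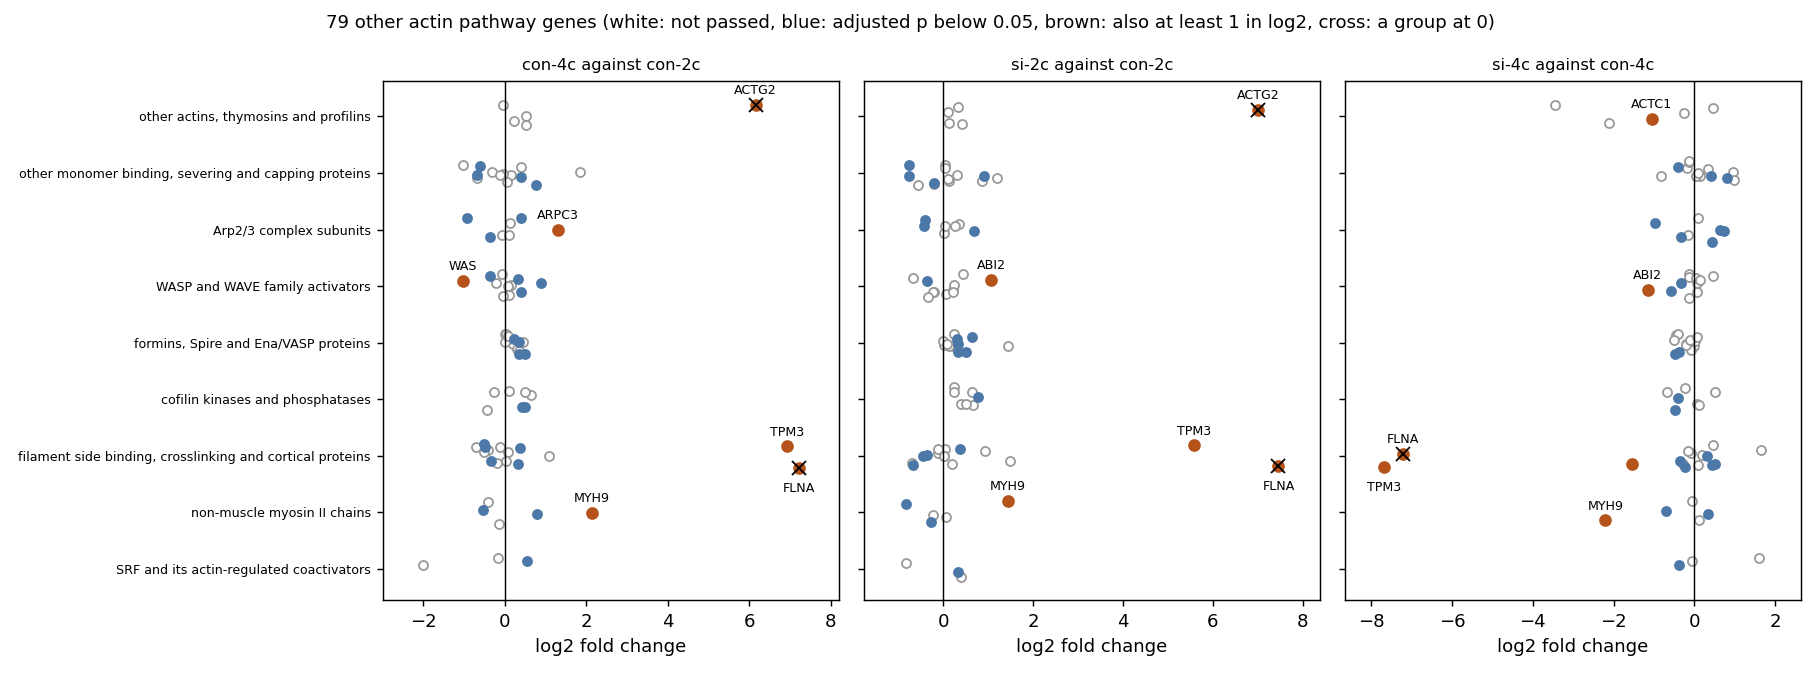
Log2 fold change (horizontal axis) of 79 of the 88 other actin pathway genes in 9 functional lists for the control contrast, the 2c knockdown contrast and the 4c knockdown contrast; crosses mark genes with a group at 0, whose position depends on the prior count of the fit. TPM3 lay at 6.93, 5.59 and -7.68, while most other genes of the lists stayed within 1 of 0.

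By list, in the control contrast, where 20.7% of all genes passed as higher and 15.1% as lower, the formin, Spire and Ena/VASP genes had 4 of 13 passed as higher and 0 as lower, and the cofilin kinases and phosphatases 2 of 7 and 0. In the 4c knockdown contrast, where 21.7% of all genes passed as lower and 15.1% as higher, the same lists had 2 of 13 and 2 of 7 passed as lower and 0 as higher. In the 2c knockdown contrast, where 16.6% of all genes passed as higher and 12.3% as lower, they had 5 of 13 and 1 of 7 passed as higher and 0 as lower. The other monomer binding, severing and capping proteins, the nearest relatives in function of the members, had 2 passed as higher and 2 as lower of 13 in the control contrast, 1 and 3 in the 2c knockdown contrast, and 2 and 1 in the 4c knockdown contrast. The shares of all genes were 20.7% and 15.1%, 16.6% and 12.3%, and 15.1% and 21.7% in these contrasts. In si-4c versus con-2c 1 of the 88 genes passed as higher and 0 as lower, beside 0.106% and 0.567% of all genes, and in si-2c versus con-4c 2 passed as higher and 6 as lower, beside 2.22% and 5.32%.

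Each value is a level relative to the library, and in pools of embryos fewer cells that hold an RNA and less RNA per cell cannot be told apart. Amplified reads carried no molecular identifiers, so replicate libraries and not read numbers set the precision. Whether reads that match more than 1 gene were shared was not given in the sources used here, and the levels of ACTB, ACTG1, CFL1, PFN1 and the thymosins, whose families have many processed copies in mammalian genomes, are uncertain to that extent.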

How the data were processed

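SMART-seq was carried out on 12 libraries of porcine embryos in 4 groups of 3 taken from the titles. The authors deposited raw counts per Ensembl gene with symbols, whole numbers that were not normalized. The submitters' processing notes name cutadapt 1.9, HISAT2 2.2.1, StringTie 2.1.6 and the build Sscrofa11.1; how reads were assigned to genes, by strand and when shared, was not given in the sources used here. The study tested genes with DESeq2.

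From the deposited counts, genes were filtered by filterByExpr and scaled by TMM in edgeR 4.0.16 (R 4.3.3), and 1 quasi-likelihood model with 4 group means was fitted to all 12 libraries (biological coefficient of variation 27.3%). P-values were adjusted by Benjamini-Hochberg over all 17995 genes. A gene passed at an adjusted p below 0.05, and the larger changes also had a log2 fold change of at least 1 in size. Standard errors were the log2 fold change over the root of its F statistic, CPM are TMM-scaled, and r was taken on log2 CPM (prior count 2). Coordinates are those of the RefSeq table of Sscrofa11.1, matched by symbol; no sequence was used here. No library was a copy of another: within groups the chi-square of the counts was 7.27 to 38.7 times its degrees of freedom. The scripts were tested on simulated data.

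The members and all gene lists were chosen with earlier results of these data known, so the list counts are no independent support for a pattern. All members were named, and of the pathway lists up to 2 genes per list and direction with the smallest p among those past both thresholds; most alike were the 5 genes of highest r for TMSB10 and the 3 of highest r for each other member. Alternatives were library totals, upper quartile scaling, DESeq2 1.42.0, no low-count filter, at least 10 CPM in 3 libraries, a replicate block, fits of the compared groups alone, no minimum fold, and leaving out each library; the count ratios to CAPZB and ACTG1 were added after the data were seen. PFN2 was not analysed here, and 1 pathway list is not reported here on its own.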

Additional observations from a re-analysis of the deposited data

Results flagged for a closer look

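For 3 members the difference between si and control libraries differed between the titles by a test of that difference itself, the interaction term in edgeR. These were 3 of 7 tested members, all higher, where 18.2% of all genes passed as higher and 27.3% as lower. It was 1.44 on the log2 scale for DSTN (SE 0.10, edgeR adjusted p = 7.22e-09), from -0.69 among libraries titled 2c to 0.74 among those titled 4c, and the ranges of si and con libraries did not overlap at either title. It was 1.06 for CFL2 (SE 0.18, edgeR adjusted p = 0.000104), from -0.44 to 0.62, and 0.99 for PFN1 (SE 0.14, edgeR adjusted p = 2.30e-05), from -0.64 to 0.35. With libraries scaled by their totals the term was 0.78 for DSTN and 0.33 for PFN1, which both passed, and 0.40 for CFL2, which did not. The term contains the control contrast, on which the members were chosen, so its p-values are no independent support.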

How the results depend on the processing

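Libraries with the same number in their titles showed no shared deviation: deviations from the group means correlated between -0.0496 and 0.0290 in 18 pairs of the same number, 0 of them over 0.1, and between -0.0389 and 0.0456 in 36 other pairs. With 3 libraries a group this cannot tell whether libraries of the same number were collected together. With the replicate block 3 members passed as lower in the 2c knockdown contrast and 3 as higher in the 4c knockdown contrast, as without it, where 11.5% and 14.5% of all genes did. The block changed no call of a member. Of the other named genes it lost ACTG2 in the control contrast (edgeR adjusted p = 0.0758) and in the 2c knockdown contrast (0.0595). Library totals had the widest effect. Under them 2 members passed as higher and 1 as lower in the 2c knockdown contrast (33.6% and 3.77% of all genes), 1 and 2 in the knockdown title contrast (3.57% and 33.1%), 1 and 0 in si-2c versus con-4c (4.98% and 3.45%), and 2 and 3 in the interaction (7.09% and 43.2%). The list genes past both thresholds numbered 10 higher and 0 lower in the control contrast and 11 higher in the 2c knockdown contrast, where 17.9%, 1.27% and 16.8% of all genes were. In the knockdown title contrast ACTB turned to -0.37, PFN1 to -0.05 and CFL1 to -0.30, and in the interaction CFL1 to -0.29. Upper quartile scaling turned ACTB to -0.014 in the 2c knockdown contrast and -0.0018 in si-4c versus con-2c, and ACTG1 to 0.055, CFL1 to 0.020 and CAPZB to 0.019 in the 4c knockdown contrast. DESeq2 turned ACTB to -0.012 in the knockdown title contrast and CFL2 to -0.011 in si-2c versus con-4c. The list genes lower in the control contrast numbered 2 under upper quartile scaling and with no filter, and 0 in DESeq2 and with at least 10 CPM in 3 libraries. Of all genes 4.48%, 2.09%, 3.21% and 3.72% were lower past both thresholds in these settings. The filter at 10 CPM, which dropped ACTB, left 2 list genes higher in the 2c knockdown contrast and 4 lower in the 4c knockdown contrast, where 6.92% and 9.99% of all genes were. Under it ACTG1 and CAPZB, 2 members, passed as lower in the knockdown title contrast (25.8% of all genes), 1, CAPZB, did in the interaction (34.2%), and CFL1 turned to -0.029 in the knockdown title contrast. Without a minimum fold the list counts were 24 and 10, 20 and 11, and 9 and 22, beside 20.7% and 15.1%, 16.6% and 12.3%, and 15.1% and 21.7% of all genes. With 1 library left out, list genes lower in the control contrast ranged from 0 to 3, higher in the 2c knockdown contrast from 3 to 5, and in the 4c knockdown contrast from 0 to 1 higher and 4 to 8 lower. The shares of all genes then ranged from 2.84% to 3.46%, from 8.22% to 10.3%, from 2.72% to 3.19% and from 12.6% to 15.2%. Members passed as higher in the 2c knockdown contrast, and as lower in the knockdown title contrast, ranged from 0 to 1, where 12.3% to 15.6% and 12.3% to 17% of all genes did. Log2 fold changes that changed sign ranged from -0.16 to 0.095 for ACTB in the 2c knockdown contrast. In the 4c knockdown contrast they ranged from -0.081 to 0.033 for ACTG1, -0.13 to 0.049 for CFL1 and -0.15 to 0.042 for CAPZB. In the knockdown title contrast they ranged from -0.072 to 0.18 for ACTB and -0.048 to 0.29 for CFL1. In si-4c versus con-2c they ranged from -0.044 to 0.091 for ACTB, -0.16 to 0.10 for ACTG1, -0.15 to 0.0046 for DSTN and -0.15 to 0.022 for CAPZB. In si-2c versus con-4c they ranged from -0.066 to 0.070 for PFN1, -0.34 to 0.0024 for CFL1 and -0.078 to 0.13 for CFL2. The cause of these shifts was not tested. With 3 libraries a group, the interval of ACTB, the member with the fewest counts, spanned -0.34 to 0.37 in the 2c knockdown contrast, so a difference of ACTB inside those bounds cannot be told from 0.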
